A study of Mus musculus with 12 samples.

Results

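Serpina3f, Serpina3g and Serpina3n are neighbouring genes of the clade A serpin cluster on mouse chromosome 12. They are 3 of the 53715 genes counted in 12 spleen RNA-seq libraries. They were found in the count table by symbol, and were picked because Serpina3f was among the largest falls in spleens of mice given 2-deoxyglucose (2DG), a glucose analogue that hampers glycolysis. They were thus chosen by their measured log2 difference between 2DG-treated and untreated spleens at 10 weeks, which is therefore described here without a test. All libraries came from whole spleen of the genotype BXSB.Cg-Cd8atm1Mak Il15tm1Imx Yaa, called Yaa DKO: the lupus-prone BXSB background with Yaa, a copy of a piece of the X chromosome holding Tlr7 on the Y chromosome, and targeted alleles of Cd8a and Il15. Every group carried these alleles, so no library stands for a spleen without them. There were 3 groups of 4 libraries: untreated at 6 weeks (replicates 1 to 4), a pre-symptomatic stage; untreated at 10 weeks (replicates 5 to 8), a symptomatic stage; and 2DG-treated at 10 weeks (replicates 9 to 12), with 2DG at 6 g/L as drinking water. The labels do not say that each library came from a separate mouse, so p-values measure only the spread between these libraries. In whole spleen, fewer cells of a type and less RNA per cell cannot be told apart.

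Serpins are inhibitors that trap a protease: the protease cuts an exposed loop of the serpin, the serpin changes shape, and the enzyme is held to it covalently. Humans have a single SERPINA3 gene, for alpha-1-antichymotrypsin, where the mouse has a cluster of copies that differ in the loop. Serpina3g (Spi2A) lacks a secretion signal and inhibits lysosomal cysteine cathepsins inside activated lymphoid and myeloid cells. Serpina3n is secreted, inhibits granzyme B and neutrophil serine proteases, and is an acute phase gene of liver and inflamed tissue that responds to IL-6 family cytokines and glucocorticoids. Serpina3f is the least studied of them and is known mainly as a transcript that interferons and T cell activation raise. Interferon gamma acts on its target genes through a promoter element, the gamma activated sequence (GAS), and through the transcription factor IRF1.

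The windows before the start sites are shown because Serpina3f and Serpina3g differ there from Serpina3n in the motifs they hold. In GENCODE M21 on GRCm38, all 3 are protein coding on the plus strand. Serpina3f (ENSMUSG00000066363.12) spans chr12:104214544-104221129 with 2290 bases of exon. Serpina3g (ENSMUSG00000041481.16) spans chr12:104236245-104241939 with 2105 bases of exon. Serpina3n (ENSMUSG00000021091.8) spans chr12:104406729-104414329 with 2064 bases of exon. The 250 bases before each RefSeq start (GRCm38.p6, plus strand, 5′ to 3′) are chr12:104214294-104214543 for Serpina3f, chr12:104235897-104236146 for Serpina3g and chr12:104406458-104406707 for Serpina3n. Capitals mark a match to the GAS letters TTCNNNGAA.
Serpina3f: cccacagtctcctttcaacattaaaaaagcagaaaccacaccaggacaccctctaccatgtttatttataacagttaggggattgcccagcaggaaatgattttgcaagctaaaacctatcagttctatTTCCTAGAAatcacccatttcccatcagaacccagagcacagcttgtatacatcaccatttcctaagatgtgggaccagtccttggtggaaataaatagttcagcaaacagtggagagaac
Serpina3g: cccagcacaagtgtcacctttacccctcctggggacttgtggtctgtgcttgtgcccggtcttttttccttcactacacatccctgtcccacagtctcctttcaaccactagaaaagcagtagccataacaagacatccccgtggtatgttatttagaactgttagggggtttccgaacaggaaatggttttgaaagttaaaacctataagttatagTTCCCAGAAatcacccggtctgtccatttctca
Serpina3n: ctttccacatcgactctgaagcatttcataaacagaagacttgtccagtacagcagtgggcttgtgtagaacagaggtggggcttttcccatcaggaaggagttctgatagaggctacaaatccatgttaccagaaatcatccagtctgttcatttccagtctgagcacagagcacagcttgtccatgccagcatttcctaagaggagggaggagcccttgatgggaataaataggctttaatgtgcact

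One GAS match lay in the Serpina3f window, its first base 121 bases before the start (-121), and 1 in the Serpina3g window (-33). The Serpina3n window held none. Serpina3f has a further RefSeq start at chr12:104214633, from which the same GAS match lies at -210. The RefSeq start of Serpina3g, 104236147, lies before its GENCODE start of 104236245. These distances thus depend on the start used. RefSeq windows were found for 8 of the 14 Serpina3 genes and pseudogenes, the 3 members among them, and Serpina3i (-102) was the only other of the 8 with a GAS match. Of all 32817 promoter windows of the same length, 7.01% held one. A stretch of the windows can be laid side by side in the 5 of these genes whose windows hold the letters AGAAATCA. The 20 bases around these letters differ between the genes and are shown with the match in capitals where the GAS letters are met:
Serpina3f: tTTCCTAGAAatcacccatt
Serpina3g: gTTCCCAGAAatcacccggt
Serpina3i: gTTCCCAGAAatcacccagt
Serpina3n: gttaccagaaatcatccagt
Serpina3c: attaccagaaatcatccagt
The glucocorticoid response element, searched as GNACA, any 3 bases and TGTNC, matched in Serpina3n (-78) and in Serpina3c (-75), against 0.387% of all windows, and in neither Serpina3f nor Serpina3g. A kappaB site matched in Serpina3g (-85) and Serpina3i (-154), against 7.25% of all windows. The C/EBP letters TTGCNNAA matched in Serpina3f (-150 and -22, or -239 and -111 from its further start) and in Serpina3b (-152), against 9.57%. The interferon-stimulated response element, searched as GAAA, any 2 bases and GAAA, matched in none of the 8 genes, against 2.97%. Both strands were searched for all 5 motifs, and 0 pairs of matches overlapped. The cluster is made of copies, so matches that recur between its genes cannot be counted separately against the shares of all windows. These matches describe letters in a 250-base window and not bound sites.

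**Figure D1:**
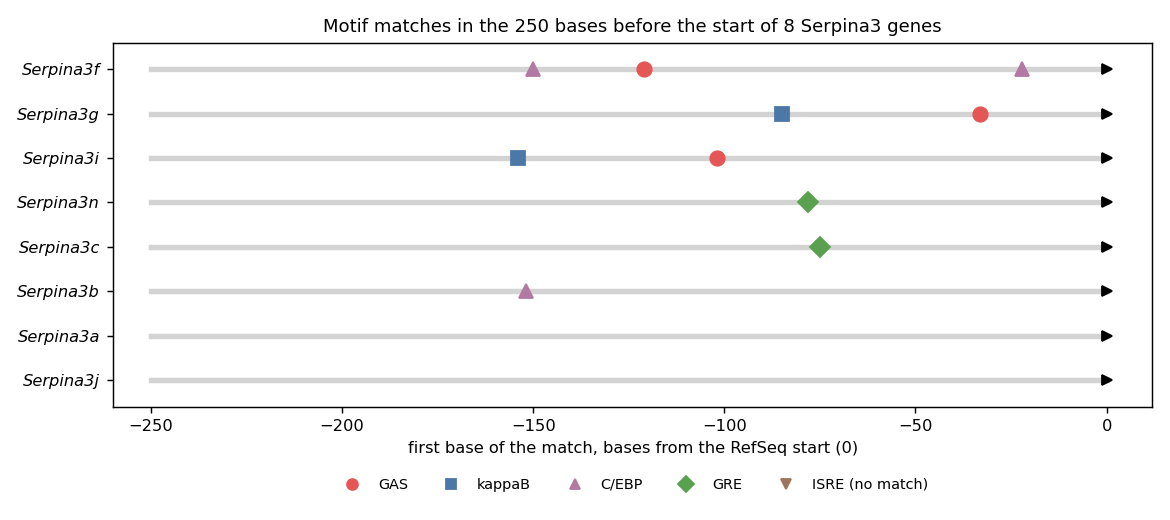
Motif matches in the 250 bases before the RefSeq start of each Serpina3 gene with a window (for Serpina3f the start at 104214544); the horizontal axis is the distance from the start in bases, each row is a gene, and each mark is a match coloured by motif. The GAS matches lie in Serpina3f, Serpina3g and Serpina3i, and the glucocorticoid response element in Serpina3n and Serpina3c.

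Libraries held 15596040 to 22480545 counts at 6 weeks, 20692818 to 26079979 untreated at 10 weeks and 21581820 to 23835453 with 2DG. A pair of untreated 10-week libraries stood apart from the other 3 of their group. In replicate 6 the summed level of 20 IL-6 family, STAT3 and acute phase genes was 1660 CPM (counts relative to the TMM-scaled library size) against 842.6 to 993 CPM, that of 6 neutrophil markers 3268 against 436 to 1766 CPM, and that of 6 B cell markers 2393 against 3128 to 4434 CPM. In replicate 8 the summed level of 26 interferon gamma induced genes was 2053 CPM against 2868 to 3983 CPM, and that of 8 effector lymphocyte genes 50.3 against 82.2 to 107 CPM. Results that rest on either library are given with and without it, or the lack of such a value is stated.

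Serpina3f was low at 6 weeks, high in untreated spleens at 10 weeks and low with 2DG. At 6 weeks replicates 1 to 4 read 27.6, 16.00, 27.9 and 14.4 CPM. At 10 weeks untreated replicates 5 to 8 read 84.1, 97.6, 84.9 and 30.0 CPM, and 2DG-treated replicates 9 to 12 read 20.9, 7.07, 12.0 and 16.1 CPM. Every untreated 10-week library lay above all 8 others, replicate 8 by a narrow margin over the highest 6-week library. The group means were 21.5 ± 7.30, 74.2 ± 30.1 and 14.01 ± 5.87 CPM (SD, n = 4 each). Between 169 and 2079 counts lay behind each value.

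Serpina3g had the same order of groups at a higher level. At 6 weeks it read 182.4, 128, 209.6 and 132 CPM in replicates 1 to 4. Untreated at 10 weeks it read 473, 426.5, 376 and 217 CPM in replicates 5 to 8, and with 2DG 177, 97.05, 122.5 and 163 CPM in replicates 9 to 12. The 4 untreated 10-week libraries were again above all others, with replicate 8 nearest to the 6-week range, and the 2DG range overlapped that of 6 weeks. Means were 163 ± 39.7, 373 ± 111 and 140 ± 36.9 CPM (SD, n = 4 each), from 2151 to 9111 counts per library.

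Serpina3n was high in 1 untreated 10-week library and lowest in the treated spleens. It read 65.9, 46.2, 47.5 and 54.00 CPM at 6 weeks. Untreated at 10 weeks it read 50.8, 187, 55.7 and 54.5 CPM, and with 2DG 35.9, 33.4, 33.3 and 41.2 CPM. Replicate 6 alone was above the 6-week range, the other 3 untreated 10-week libraries fell inside it, and all 4 libraries with 2DG were below every untreated library of either age. Means were 53.4 ± 8.99, 87.0 ± 66.7 and 35.9 ± 3.66 CPM (SD, n = 4 each), from 770 to 3983 counts per library. The same replicate 6 carried the raised acute phase and neutrophil sums given above, and their part in the Serpina3n value was not tested.

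**Figure D2:**
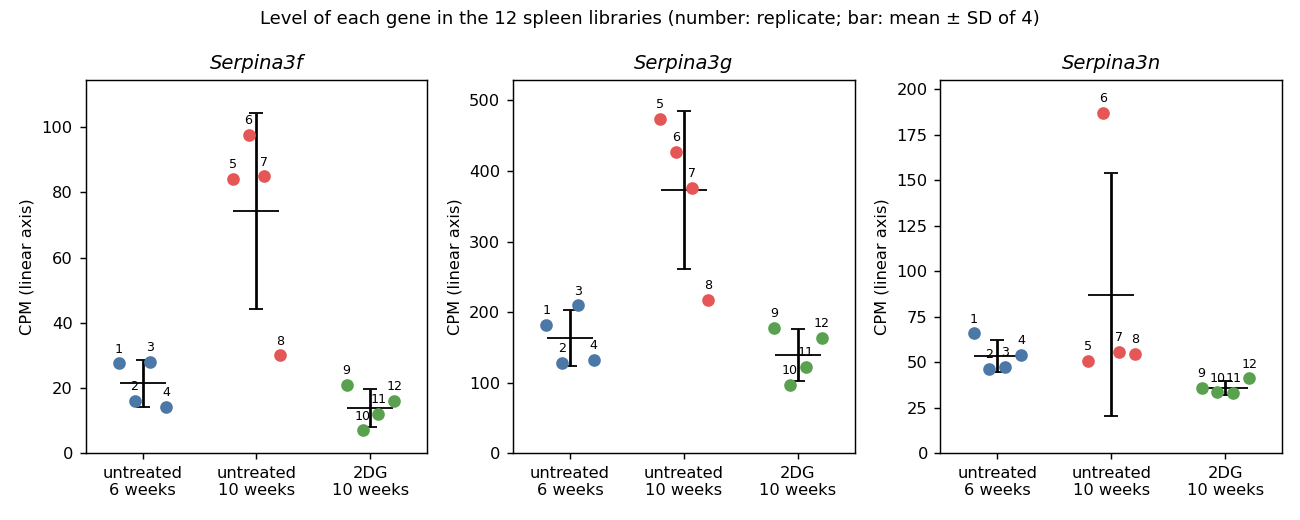
Level of each gene in all 12 libraries, in CPM on a linear axis from 0, with 1 panel per gene, points for libraries numbered by replicate, and bars for the mean and SD of each group of 4. Serpina3f and Serpina3g are highest in the 4 untreated 10-week libraries, and Serpina3n is highest in replicate 6 at 187 CPM.

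Per kilobase of exon, which allows genes to be compared, Serpina3g had the highest level in every library. The mean levels were 77.5 ± 18.8 CPM per kb at 6 weeks, 177 ± 52.9 untreated at 10 weeks and 66.5 ± 17.5 with 2DG. Serpina3n followed at 25.9 ± 4.36, 42.2 ± 32.3 and 17.4 ± 1.77 CPM per kb, and Serpina3f was at 9.38 ± 3.19, 32.4 ± 13.1 and 6.12 ± 2.56 CPM per kb (SD, n = 4 in each group). The order of Serpina3n and Serpina3f was not fixed among untreated 10-week libraries, where their ratio per kb ran from 0.670 to 2.13. The ratio of Serpina3g to Serpina3f per kb was 8.52 ± 1.17 at 6 weeks, 5.89 ± 1.46 untreated at 10 weeks and 11.6 ± 2.40 with 2DG (SD, n = 4 each). The 6-week range of that ratio, 7.19 to 10.0, overlapped both the untreated 10-week range of 4.75 to 7.86 and the 2DG range of 9.24 to 14.9, while the last pair did not overlap.

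With age, from 6 to 10 weeks without treatment, Serpina3f was 3.45-fold and Serpina3g 2.29-fold higher in mean CPM, and neither difference passed the threshold in edgeR. This comparison uses the same untreated 10-week libraries as the one that chose Serpina3f, so it is not independent of that choice. The edgeR quasi-likelihood fit over all 12 libraries gave a log2 difference of 1.78 ± 0.42 (SE) for Serpina3f, with an adjusted p of 0.110, and all 4 libraries above the 6-week range. For Serpina3g it gave 1.19 ± 0.27, adjusted p 0.0975, again with 4 of 4 above. For Serpina3n it gave 0.70 ± 0.39, adjusted p 0.391, with 1 library above. In edgeR 0 of the 3 genes passed, against a background of 0.00539% of all 18542 genes tested. At an unadjusted p under 0.05, edgeR gave 2 of the 3, beside 3179 of all 18542 genes. DESeq2, run on 36604 genes, called 2 of the 3, beside 682 in all. Serpina3f and Serpina3g were without overlap between the ages, higher at 10 weeks, as were 3.64% of all genes. Two-sided exact permutation tests gave p = 0.0286 for Serpina3f and for Serpina3g, which is the smallest that 4 against 4 libraries allow, and p = 0.457 for Serpina3n. Adjusted over the 6 exact tests made here, the permutation p was 0.0571, 0.0571 and 0.457.

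DESeq2 called Serpina3f and Serpina3g with age with all libraries in. In edgeR their call with age depended on replicate 8. Without it, edgeR gave Serpina3f 2.05 with an adjusted p of 0.00995 and Serpina3g 1.39 with an adjusted p of 0.00887, and the background of genes called higher rose to 4.57%. Serpina3n rested on replicate 6: without that library its log2 difference with age was 0.01, with an adjusted p of 0.966 in edgeR.

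With 2DG at 10 weeks all 3 genes were lower in every treated library than in any untreated one, as were 7.91% of all genes; this contrast chose the genes and the values are a description. The log2 difference was -2.40 ± 0.43 (SE) for Serpina3f, -1.41 ± 0.27 for Serpina3g and -1.27 ± 0.40 for Serpina3n. Mean CPM was 5.29 times, 2.67 times and 2.42 times as high in untreated as in treated spleens. Among all 18542 genes tested, ordered from the largest fall, Serpina3f was number 114, Serpina3g number 343 and Serpina3n number 394. For Serpina3n the size hung on replicate 6, without which the log2 difference was -0.58. It was -0.81 in limma voom with quality weights, where its difference with age was 0.29.

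Set against the 6-week spleens, the treated 10-week spleens differed less in Serpina3f and Serpina3g. For Serpina3n the smaller difference hung on untreated 10-week replicate 6. Without it the log2 difference was -0.58 against untreated 10-week and -0.57 against 6-week spleens. Serpina3f was at -0.62 ± 0.42 on the log2 scale with an edgeR adjusted p of 0.513, and 2 of 4 treated libraries were below the 6-week range. Serpina3g was at -0.22 ± 0.27, adjusted p 0.743 in edgeR. Serpina3n was at -0.57 ± 0.40, adjusted p 0.521 in edgeR, with 4 of 4 treated libraries below the 6-week range, as for 7.69% of all genes. No member passed in edgeR (0 of 3, with 0 at an unadjusted p under 0.05 and 0 in DESeq2), against 0.129% of all genes. Exact permutation p was 0.2, 0.4 and 0.0286, and 0.3, 0.457 and 0.0571 adjusted over the 6 tests. The edgeR adjusted p of Serpina3n was 0.0260 when only these groups were fitted and 0.0342 when untreated 10-week replicate 6, which is in neither group, was left out of the shared fit. Many more genes were called in these fits, 1367 of 18139 and 344 of 18831, against 24 of 18542 with all libraries. The treated libraries serve here and in the contrast that chose the genes.

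**Figure D3:**
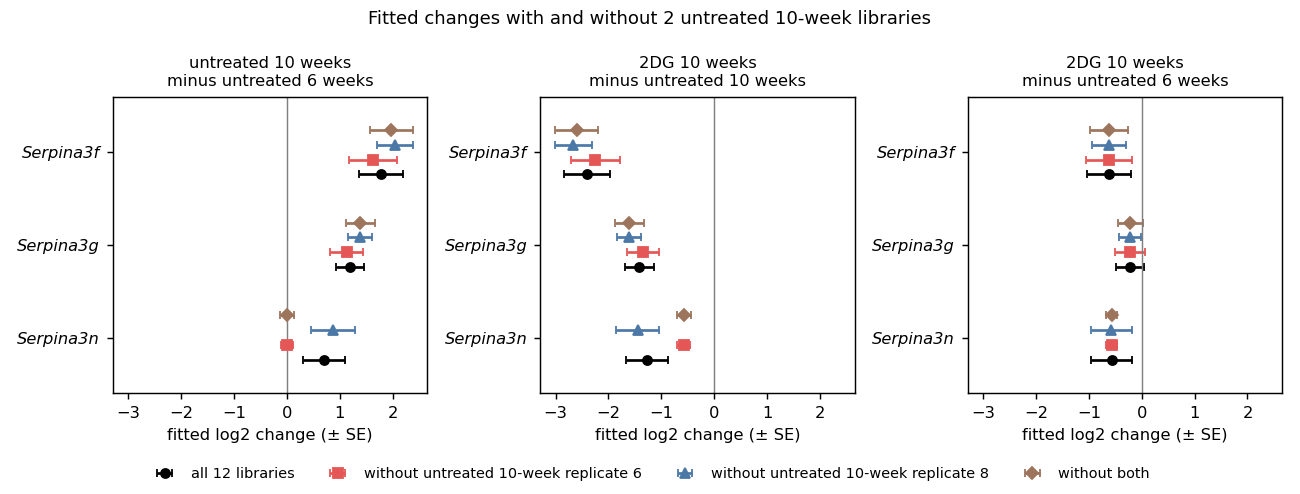
Fitted log2 difference of each gene (horizontal axis, bars for SE) in 1 panel per comparison, from all 12 libraries and without untreated 10-week replicate 6, replicate 8 or both. Serpina3f has the largest values with age (1.78) and with 2DG at 10 weeks (-2.40), and Serpina3n moves to 0.01 and -0.58 in these comparisons without replicate 6.

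Libraries of 1 group differed from each other in Serpina3f and Serpina3g by more than in the median gene. The SD of log2 CPM at 6 weeks, untreated at 10 weeks and with 2DG was 0.506, 0.785 and 0.664 for Serpina3f, and 0.3495, 0.501 and 0.397 for Serpina3g. For Serpina3n it was 0.233, 0.902 and 0.142. The median over all genes tested was 0.145, 0.234 and 0.138. Serpina3n with 2DG was thus close to the median gene, and the same gene in untreated 10-week spleens had the widest spread of the 3.

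Reads that fit several copies could move between the members. Of all 75-base words in its transcripts, Serpina3f shared 5.33%, Serpina3g 7.69% and Serpina3n 1.46% with transcripts of other genes. Serpina3f shared 1.97% with Serpina3g, and Serpina3g shared 4.65% with Serpina3h. How the authors divided such reads is not stated in the labels.

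The rest of the cluster was expressed far below the members. Of it only Serpina3b, Serpina3c, Serpina3h and Serpina3i had enough counts to be tested. None of these passed in edgeR over all 12 libraries. Serpina3b averaged 2.41 ± 0.742 CPM at 6 weeks, 1.97 ± 1.21 untreated at 10 weeks and 1.74 ± 0.602 with 2DG (SD, n = 4). Its log2 difference with 2DG at 10 weeks was -0.18 ± 0.38, adjusted p 0.826 in edgeR. Serpina3i, which holds a GAS match like Serpina3f and Serpina3g, averaged 1.54 ± 0.503, 1.76 ± 0.355 and 1.23 ± 0.208 CPM, and its difference with 2DG at 10 weeks was -0.50 ± 0.25, adjusted p 0.230 in edgeR. Serpina3h, a transcribed pseudogene, averaged 1.37 ± 0.574, 1.47 ± 0.362 and 1.67 ± 0.276 CPM. Serpina3c stood at 4.23 CPM in untreated replicate 6 and at 0.0522 to 0.606 CPM in the other 11 libraries. Serpina3c with 2DG at 10 weeks was at -1.10 with an edgeR adjusted p of 0.554, and turned to 2.09 with an adjusted p of 0.0114 without replicate 6. The pseudogene Serpina3e-ps had 22 counts in that library, and Serpina3m 9. Serpina3j, Serpina3k and Serpina3l-ps had 0 counts throughout. Liver RNA, a rich source of clade A serpins, was near absent: 7 hepatocyte markers summed to at most 0.2 CPM in any library, and Fgb had 0 counts. Other neighbouring tissue was not absent. The highest sums of 5 pancreas markers were 15.3 CPM at 6 weeks, 6.68 untreated at 10 weeks and 48.8 with 2DG, and those of 5 fat markers 17.4, 17.4 and 28.6 CPM.

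Serpina3f and Serpina3g moved together across libraries, and Serpina3n less so. Over the 12 libraries, which share the group differences and depth, Pearson's r of log2 CPM was 0.99 for Serpina3f with Serpina3g (rho 0.972), 0.689 for Serpina3f with Serpina3n (rho 0.762) and 0.630 for Serpina3g with Serpina3n (rho 0.727). With group means taken out the same values of r were 0.964, 0.370 and 0.282. Without replicate 6 they were 0.982, 0.618 and 0.521 over 11 libraries. These are descriptions, and the genes share reads to the extent given above.

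**Figure D4:**
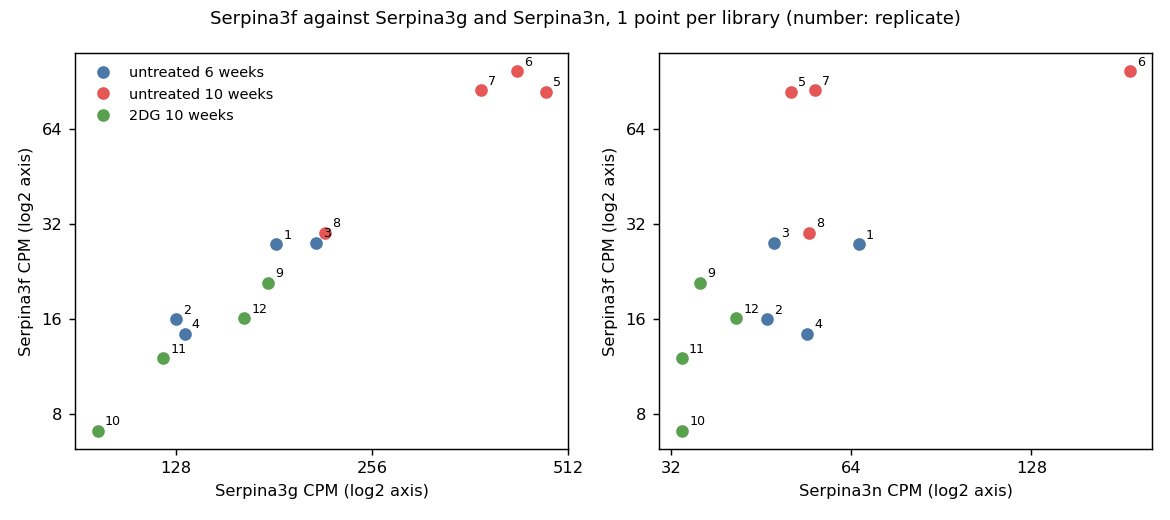
Serpina3f against Serpina3g (left) and against Serpina3n (right), in CPM on log2 axes, with 1 point per library coloured by group and numbered by replicate. Serpina3f and Serpina3g fall along a line (r = 0.99 over 12 libraries), and replicate 6 stands alone at 187 CPM of Serpina3n.

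Among 11298 genes, the 6 whose log2 CPM followed Serpina3f most closely were Cxcr3 (r = 0.990), Serpina3g, Odr4 (0.978), Iigp1 (0.975), Gbp5 (0.971) and Sec24d (0.968). Cxcr3 is the receptor for the interferon gamma induced chemokines, and Iigp1 and Gbp5 are interferon-inducible GTPases. For Serpina3g they were Serpina3f, Gbp5 (0.975), Chpf (0.975), H2-K1 (0.972), Tnfsf8 (0.969) and A2m (0.968); H2-K1 is a class I MHC heavy chain and A2m a broad protease inhibitor in plasma. For Serpina3n they were Rab27a (0.943), Akr1b10, Pik3r5, Ptch1, Man2a1 and Pik3cg (0.927). The lists of Serpina3f and Serpina3g shared Gbp5 beside each other's gene, and that of Serpina3n shared 0 of its 6 with either. The Serpina3n list rested on replicate 6: without it Rab27a had r = 0.723 and 0 of the 6 genes stayed among the closest, against 4 for Serpina3f and 2 for Serpina3g.

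Cxcr3 can be read in full as the closest match. It stood at 25.2, 18.4, 22.8 and 16.4 CPM at 6 weeks, 39.9, 40.1, 39.9 and 20.97 CPM untreated at 10 weeks and 20.2, 11.2, 14.2 and 17.2 CPM with 2DG. The dip of replicate 8 is the one seen in Serpina3f and Serpina3g. Cxcr3 fell with 2DG at 10 weeks by 1.16 on the log2 scale (SE 0.23, adjusted p 0.0137 in edgeR); without 2DG replicate 11 the adjusted p was 0.0542.

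In the interferon gamma pathway the ligand and the transcription factor Irf1 fell with 2DG at 10 weeks and the receptor chains did not pass the test. Of its 11 genes 5 were lower and 0 higher in edgeR, against 5.26% and 2.16% of all genes. Ifng, the ligand, read 4.17, 1.27, 2.43 and 1.28 CPM in untreated 10-week libraries and 0.926, 0.251, 0.433 and 0.312 CPM with 2DG, without overlap. Its log2 difference was -2.22 ± 0.45 with an adjusted p of 0.0118 in edgeR, and 0.0545 when only the compared groups were fitted. Ifngr1 was at 0.17 ± 0.16 (adjusted p 0.567 in edgeR) and Ifngr2 at -0.03 ± 0.05 (adjusted p 0.786). Irf1 fell by 0.87 on the log2 scale, from 247 ± 45.7 to 135 ± 13.8 CPM (SD, n = 4), with an adjusted p of 0.00222 in edgeR. Socs1, which damps the signal, and Nlrc5, which drives class I MHC genes, also fell. With age 0 of these 11 passed in edgeR, 6 had an unadjusted p under 0.05 and DESeq2 called 2. Over all 18542 genes tested, 3179 had an unadjusted p under 0.05 with age. Over all 12 libraries, replicate 6 included, Serpina3f and Serpina3g had r = 0.949 and 0.945 with Irf1, and Serpina3n 0.638.

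Of 25 tested genes that interferon gamma induces, 21 fell with 2DG at 10 weeks and 0 rose, with a median log2 difference of -1.15, against 0.01 over all genes tested. In that comparison edgeR called 5.26% of all genes lower and 2.16% higher. Gbp9, Gbp4 and Irgm1 had the smallest adjusted p in edgeR. Gbp4, a guanylate-binding GTPase, fell by 1.26 from 191 ± 45.1 to 79.9 ± 9.65 CPM (adjusted p 0.00287 in edgeR). With age all 25 had a positive difference, with a median of 0.65; 0 passed in edgeR, 21 had an unadjusted p under 0.05 and DESeq2 called 11. Against the 6-week spleens 0 of 25 passed with 2DG in edgeR, 11 had an unadjusted p under 0.05 and DESeq2 called 2. Of 25 genes known best from type I interferon, 1 fell with 2DG at 10 weeks: the nucleic acid sensor Zbp1, by 1.43 (adjusted p 0.0153 in edgeR), a call lost without 2DG replicate 10 or 11. Their median was -0.23 with 2DG at 10 weeks and -0.19 with age. Against the 6-week spleens 0 of these 25 passed with 2DG in edgeR, 10 had an unadjusted p under 0.05 and DESeq2 called 5. There 21 differences were negative and the median was -0.49, beside -0.39 for the interferon gamma list. The background against 6 weeks was 3132 of 18542 genes at an unadjusted p under 0.05, with 24 called by edgeR. DESeq2 called 902 of the 36604 genes it was run on. With age the background was 3179 of 18542 genes, with 1 called by edgeR and 682 of 36604 by DESeq2. Untreated replicate 6 had a type I sum of 827 CPM against 1312 to 1874 CPM in the other 3 of its group.

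The inducers known for Serpina3n gave a mixed picture. Of 17 tested IL-6 family, STAT3 and acute phase genes, 3 were lower with 2DG at 10 weeks and 0 higher, with a median of -0.50. The background for this and the other list counts below was 5.26% of all genes lower and 2.16% higher in edgeR. Stat3 fell by 0.50 (adjusted p 0.00281 in edgeR) from 303 ± 32.5 to 215 ± 11.3 CPM, and Socs3, its feedback inhibitor, by 1.80 from 94.4 ± 41.3 to 27.1 ± 2.59 CPM (adjusted p 0.00602). Lif, a cytokine of the IL-6 family, fell by 1.01, a call lost without untreated replicate 5 or 2DG replicate 9 or 11. Il6 itself was below 1 CPM in every library, at -1.19 ± 0.45 with an adjusted p of 0.122 in edgeR. Of 10 glucocorticoid-induced genes 1 fell, Cdkn1a (by 0.70, adjusted p 0.0271 in edgeR; lost without untreated replicate 5 or 7 or 2DG replicate 10 or 11), and the median was 0.17. In replicate 6 the glucocorticoid-induced genes summed to 1462 CPM against 702 to 957 CPM in the other 3 untreated 10-week libraries. Fkbp5, a glucocorticoid target looked at after its values were seen, had r = 0.503 with Serpina3n and -0.03 with both Serpina3f and Serpina3g. Stat3 had a higher r with Serpina3f (0.945) and Serpina3g (0.942) than with Serpina3n (0.741), and Il6 had r = 0.682, 0.656 and 0.646 with the 3 genes. The acute phase gene Saa3 went the other way, with r = 0.898 for Serpina3n, 0.779 for Serpina3f and 0.748 for Serpina3g. The r values with Fkbp5, Stat3, Il6 and Saa3 include replicate 6, where Serpina3n was highest. How far they rest on that library was not tested. Of 14 NF-kB factors and targets 2 fell, Bcl3 and Icam1, with a median of -0.07; both calls hung on 2DG replicates 10 and 11, and that of Icam1 on each of 5 further libraries.

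Proteases that these serpins can meet were of 2 kinds in the list, granule proteases and lysosomal cathepsins, and members of both fell. Of 17 tested granule and lysosomal proteases 5 fell with 2DG at 10 weeks and 0 rose, against 5.26% and 2.16% of all genes. Their median was -0.52. Gzmb, the granule protease that Serpina3n inhibits, read 5.27, 2.58, 1.69 and 0.853 CPM in untreated 10-week libraries and 0.505, 0.335, 0.303 and 0.268 CPM with 2DG. It fell by 2.84 (SE 0.51, adjusted p 0.00721 in edgeR), and Gzmk by 2.69 (SE 0.52, adjusted p 0.0119). Ctsb, a lysosomal target of Serpina3g, averaged 1219 ± 106 CPM at 6 weeks, 1470 ± 194 untreated at 10 weeks and 1413 ± 65.0 with 2DG. Its log2 difference with 2DG at 10 weeks was -0.06 ± 0.09, adjusted p 0.766 in edgeR. Ctss, Ctsc and Ctsz fell by 0.57, 0.52 and 0.42; the Ctss call was lost without 2DG replicate 10 or 11. Ctsg, the neutrophil target of alpha-1-antichymotrypsin, was at 57.6 CPM in replicate 6 and at 4.55 to 17.1 CPM in the other 11 libraries.

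Some serpins outside the cluster passed the test with 2DG at 10 weeks, where edgeR called 5.26% of all genes lower and 2.16% higher. Of 5 tested clade A serpins outside the cluster 1 fell with 2DG at 10 weeks, Serpina10, the inhibitor of coagulation factor Xa with protein Z. It fell by 0.92 (adjusted p 0.00253 in edgeR), from 6.27 ± 0.501 to 3.31 ± 0.604 CPM (SD, n = 4), and stood at 5.55 ± 0.355 CPM at 6 weeks. Of 17 serpins of other clades 3 fell, with a median of 0.02 over the list. Serpinb9, the intracellular granzyme B inhibitor, fell by 0.42 (adjusted p 0.00819 in edgeR) from 79.6 ± 8.68 to 59.6 ± 3.35 CPM. Serpinf1, for pigment epithelium-derived factor, fell by 0.86 (adjusted p 0.00864). Serping1, the complement C1 inhibitor, was at -0.51 with an adjusted p of 0.0465 in edgeR, and lost its call in the absence of any library but untreated 10-week replicate 8. Serpinb9b, looked at after its values were seen, was at -1.45 ± 0.44 with an adjusted p of 0.0656 in edgeR and no overlap between the groups, at 0.783 ± 0.435 CPM untreated and 0.277 ± 0.131 CPM with 2DG (SD, n = 4).

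Marker lists of the cell types in spleen went different ways with 2DG at 10 weeks. Over all 18542 genes tested, edgeR called 5.26% lower and 2.16% higher in this comparison, and 4549 had an unadjusted p under 0.05. DESeq2, run on 36604 genes, called 2304. Of 8 effector lymphocyte genes 5 fell, and their summed level was 35.0 to 41.9 CPM at 6 weeks, 50.3 to 107 untreated at 10 weeks and 31.3 to 45.0 with 2DG. Of 6 plasma cell genes 5 fell, and their sum was 1890 to 3524, 3161 to 5834 and 1487 to 2337 CPM. Of 8 splenic macrophage markers 1 and of 6 monocyte markers 2 fell. Of 6 B cell, 6 T cell and 6 neutrophil markers 0 passed in edgeR in this comparison, with 0, 1 and 0 at an unadjusted p under 0.05 and 0 each in DESeq2. Of 6 dendritic cell markers 2 rose (median log2 difference 0.41), as did 1 of 5 megakaryocyte markers (median 0.65) and 1 of 4 NK cell markers (median 0.03). Of 6 erythroid markers 0 passed in edgeR, with 4 at an unadjusted p under 0.05, 3 called by DESeq2 and a median of 1.03. Every marker of the effector lymphocyte, plasma cell, splenic macrophage, monocyte, B cell, T cell and neutrophil lists had counts in all 12 libraries. The part of cell numbers in the levels of Serpina3f, Serpina3g and Serpina3n was not tested.

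**Figure D5:**
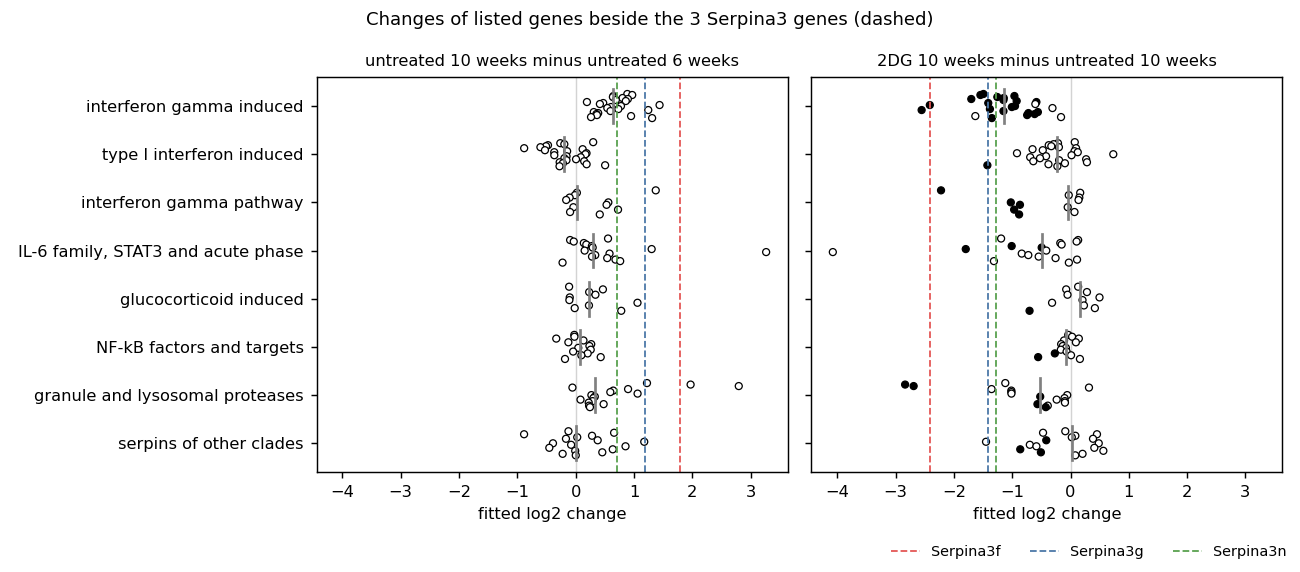
Fitted log2 differences of the tested genes of 8 lists (rows) with age (left) and with 2DG at 10 weeks (right), with 1 point per gene, filled where the edgeR adjusted p is under 0.05, a grey bar at each list's median and dashed lines at the 3 Serpina3 genes. On the right the interferon gamma induced genes have a median of -1.15 and the serpins of other clades one of 0.02.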

How the data were processed

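Poly(A)-selected libraries were made from total spleen RNA with a TruSeq v2 kit that keeps no strand information (labels' protocols). As deposited, the authors' table holds raw counts, whole numbers per gene and library. Bowtie2 2.2.0, RSEM 1.2.12 and GRCm38 appear in the submitters' processing notes without a role; how counts became whole is not stated there. Gene names, coordinates and exon lengths came from GENCODE M21 (53620 of 53715 identifiers matched). Groups came from sample titles.

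The counts were fitted with edgeR 4.0.16 (R 4.3.3; TMM, filterByExpr by group, robust quasi-likelihood) over all 12 libraries, and p-values were adjusted by Benjamini-Hochberg over the 18542 genes tested, with a threshold of 0.05. SE is the size of the log2 difference divided by the square root of F. CPM are counts scaled by TMM library sizes. The fit was tested on simulated counts. Alternatives were DESeq2 1.42.0, limma 3.58.1 voom with quality weights, other size factors, filters and fitted groups, removal of immunoglobulin genes, and each library left out.

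The members and gene lists were chosen with earlier results of these data known. Genes named are the members, the expressed cluster, the 6 most like each member by Pearson's r (average log2 CPM of at least 2, prior count 2), serpins past the threshold, up to 3 per list by adjusted p, and Ifng, Irf1, Gzmb, Ctsb, Ctsg, Il6 and Stat3. A gene that this rule also names is not reported here. Others named, such as Ifngr1, Ifngr2, Socs1, Fkbp5, Saa3, Serpinb9b, Ctsc, Ctsz and Fgb, were chosen after their values were seen. Promoter windows are 250 bases before RefSeq starts. Replicate numbers are not shared between groups.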

Additional observations from a re-analysis of the deposited data

Results flagged for a closer look

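In 9 of 138 groups of 4 libraries, 1 library lay far from the other 3 by Dixon's ratio, the gap to its nearest neighbour over the whole range of the group; chance gives about 1 in 20. Untreated 10-week replicate 6 was the high one 5 times: for Serpina3n (ratio 0.964, 187 CPM), Serpina3c (ratio 0.972, 4.23 CPM), Rab27a (ratio 0.846, 109 CPM), Akr1b10 (ratio 0.890, 29.6 CPM) and Man2a1 (ratio 0.889, 467 CPM). The last 3 genes were picked for their likeness to Serpina3n, so their flags are not independent of its own. Untreated 10-week replicate 8 was low for Cxcr3 (ratio 0.993, 20.97 CPM). Untreated 6-week replicate 1 was high for Rab27a (ratio 0.901, 64.8 CPM). With 2DG, replicate 10 was low for Serpina3h (ratio 0.892, 1.26 CPM) and replicate 12 high for Gzmk (ratio 0.975, 1.56 CPM).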

How the results depend on the processing

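Serpina3f, Serpina3g and Serpina3n kept the direction of all 9 differences under the 20 alternatives each. Some calls were gained. With age, Serpina3f was 1.79 in DESeq2 (adjusted p 0.00434), 1.98 with untreated 10-week replicates 6 and 8 both left out (0.0223 in edgeR), and 1.63 to 2.05 with single libraries left out (0.00995 to 0.310). Serpina3g was 1.1997 in DESeq2 (0.000602), 1.39 with both left out (0.0200 in edgeR) and 1.06 to 1.39 with single libraries left out (0.00887 to 0.298). Serpina3n for 2DG against 6 weeks was -0.57 with only the compared groups fitted, -0.57 with both left out (0.0276 in edgeR), and -0.64 to -0.45 with single libraries left out (0.0342 to 0.709). Leaving out both libraries was chosen after seeing the data. Serpina3c with 2DG at 10 weeks was -1.495 to 2.09 with single libraries left out, turned to 2.09 without replicate 6 and to 2.44 without both. Fitting only the compared groups also ended the calls of Bcl3, Cdkn1a, Ctss, Icam1, Lif and Serping1; the cause was not tested.

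Genes called by edgeR with age numbered 1, and 102 without a filter, 0 with only the compared groups, 682 in DESeq2, 0 to 1563 with single libraries left out and 2303 without both. For 2DG at 10 weeks they numbered 1376, and 581, 2304, 514 to 2209 and 3193 with only the compared groups, in DESeq2, with single libraries left out and without both. For 2DG against 6 weeks they numbered 24, and 98 without a filter, 1367 with only the compared groups, 1644 with voom weights, 902 in DESeq2, 1 to 354 with single libraries left out and 758 without both. DESeq2 and the fit without a filter took in 36604 genes. Transcript words of 50 bases raised the shared part to 10.6% for Serpina3f, 15.5% for Serpina3g and 6.90% for Serpina3n. By Spearman's rho, or by deviations from group means, 3, 3 and 0 of the 6 most similar genes of Serpina3f, Serpina3g and Serpina3n were the same. No paired analysis was possible because the groups share no replicate numbers. Genes with few counts, such as Serpina3c and Ifng, are limited by depth.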
